A study of Mus musculus with 16 samples.

Results

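Early 2-cell mouse embryos were set against the stages on either side of them, the 1-cell and the 4-cell embryo. The aim was to find RNAs that stood above or below both flanks during the first wave of embryonic transcription, which begins late in the 1-cell stage. The comparison used 6 of the 16 arrays of the series, chosen by their stage labels: 2 early 2-cell arrays, 2 of 1-cell and 2 of 4-cell embryos, 1 of each stage after superovulation and 1 of each after a natural cycle. By the labels the early 2-cell embryos were 1 day past fertilization, as were the late 2-cell embryos, the 1-cell embryos 0 days and the 4-cell embryos 2 days. Superovulated B6C3F1 females received 10 IU PMSG and 10 IU hCG 48 h apart, while natural-cycle B6C3F1 females received no hormone. All embryos were fertilized by CD1 males and cultured in KSOM(aa), and each array held the pooled RNA of 20 embryos of 1 stage and 1 hormonal background, drawn from 4 collection runs (3096 oocytes and embryos) after superovulation and 9 runs (989) after natural cycles. No stage had a replicate array within a background, so that the error of each estimate is the disagreement between both backgrounds in their course over the 8 stages, and p-values measure only the spread between these pooled samples.

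In the mouse the fertilized egg starts with RNA that the oocyte stored. A small first wave of transcription (minor zygotic activation) begins late in the 1-cell stage and carries into the early 2-cell embryo, and a larger one (major activation) follows in the late 2-cell embryo, while stored maternal RNAs are deadenylated and degraded. Genes known to be transcribed briefly at the 2-cell stage include the Zscan4 cluster, which encodes zinc finger proteins with a SCAN domain and is also switched on in rare cells of embryonic stem cell cultures.

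Signals are log2 values as deposited, and a difference of 1 is a doubling or a halving. They are relative to the other rows of an array, since the array medians lay between 4.39 and 4.69 at every stage, so that a change in the total RNA of an embryo would not show. A level of silent genes was set on each array from 1804 rows of receptor and keratin-associated families (their 95th percentile, 4.82 to 5.33), and where a flank lay at or below it the fold change is given as a lower bound. Of 20 cumulus and granulosa markers, 4 to 7 lay above that level on the 6 arrays, as did 2 to 4 of 14 oviduct, blood and immune markers and 1 or 2 of 13 sperm markers. None of the cumulus or oviduct markers was called in the comparison, and of the sperm markers 1 was called higher (Pgk2, 0.87) and 1 lower (Ldhc, -1.02).

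Of 30638 tested rows (30176 genes), 2699 were called higher at early 2-cell than the mean of 1-cell and 4-cell (8.81%) and 2487 were called lower (8.12%) (limma, Benjamini-Hochberg adjusted p below 0.05). That split depended on the scaling: with each array centred on its rows above the level of silent genes, which moved the median of all rows by -0.26, 1666 rows were called higher and 5389 lower. A call against the mean of 2 flanks does not ask for a peak, and early 2-cell lay between 1-cell and 4-cell in 571 of the rows called higher and in 687 of those called lower. A row was therefore taken as a peak only where it was called higher and early 2-cell exceeded both flanks by at least 1 log2 on both backgrounds, and as a dip where it was called lower and early 2-cell lay at least 1 log2 below both flanks on both. This left 394 peak rows (1.29%, 385 genes) and 366 dip rows (1.19%, 363 genes). With lower values raised to the level of silent genes, the smallest difference fell under 1 log2 in 30 peak and 9 dip rows.

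**Figure D1:**
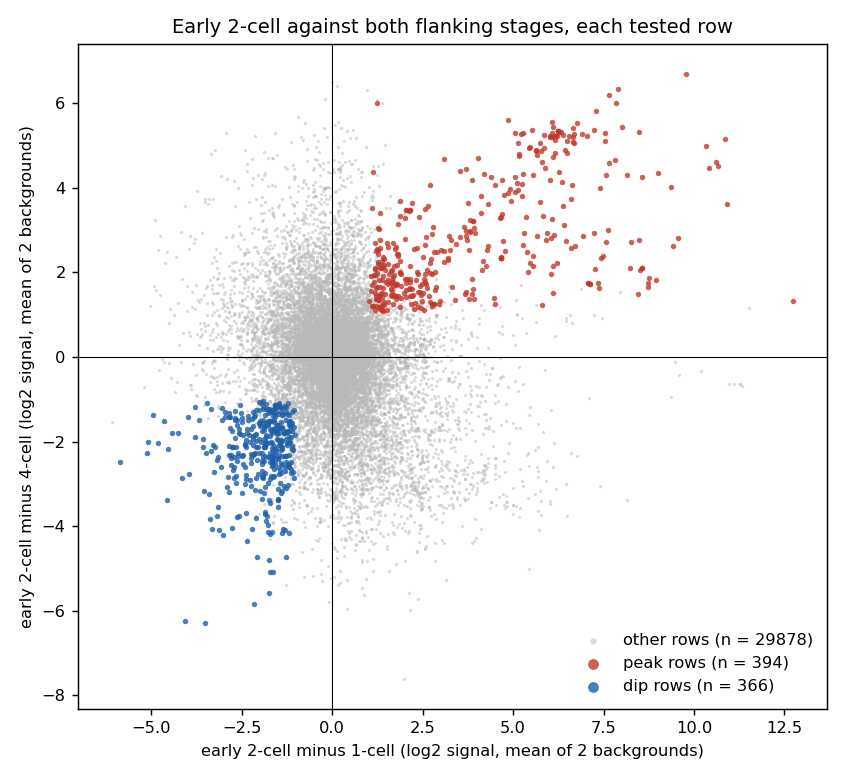
Mean difference between early 2-cell and 1-cell (horizontal, log2 signal) against the mean difference between early 2-cell and 4-cell (vertical, log2 signal), each the average over both backgrounds and each point 1 of 30638 tested rows. The 394 peak rows (red) fill the upper right corner and spread farther, up to a contrast of 8.22, than the 366 dip rows (blue) at the lower left.

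Peaks were larger than dips. The contrast, early 2-cell minus the mean of both flanks, had a median of 2.91 log2 over the peak rows and -2.03 over the dip rows, and 170 peak rows but 47 dip rows cleared 2 log2 on all 4 differences. At the edge of the size rule, Btbd35f13 and Gm7645 had a smallest difference of 1.00 just inside it, and Btbd35f17 and Gm14598 of 1.00, rounded up, just outside.

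The 2 sets also differed in what lay beneath them. Among peak rows 94 lay at or below the level of silent genes on both 1-cell arrays and 36 on all 4 flank arrays, whereas every dip row lay above that level on all 1-cell and 4-cell arrays. At early 2-cell itself 345 dip rows were still above the level on both arrays. So were 388 peak rows, while 2 peak rows lay at or below it on both. Protein-coding genes made up 56.3% of peak rows and 82.5% of dip rows, against 63.0% of all tested rows. Pseudogenes made up 22.6% and 17.2%, against 15.4% of all, and predicted genes with a Gm symbol 43.1% and 13.9%, against 25.3%.

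The other stages entered the rule only through the error and the stimulation term of the fit, not through the contrast or the 4 differences. Early 2-cell was the highest of all 8 stages on both backgrounds in 327 of 394 peak rows (83.0%), and the lowest of all 8 in 319 of 366 dip rows (87.2%). Over all tested rows the shares were 5.33% and 5.21%, but the rule already fixes 2 of the 7 comparisons in this count. The median peak row had a signal of 10.84 at early 2-cell after superovulation, against 6.38 in MII oocytes and 6.43 in 1-cell embryos, and declined over the later stages to 7.84 at 4-cell and 5.62 in blastocysts. The natural-cycle arrays gave 11.07 at early 2-cell, with 6.17, 6.60, 7.66 and 5.33 at those stages. The median dip row lay at 7.93 at early 2-cell after superovulation, with 10.25 in MII oocytes, 10.19 at 1-cell, 10.34 at 4-cell and 11.25 in blastocysts. In the natural-cycle series it lay at 7.94 at early 2-cell, with 10.42, 10.10, 10.27 and 10.89.

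**Figure D2:**
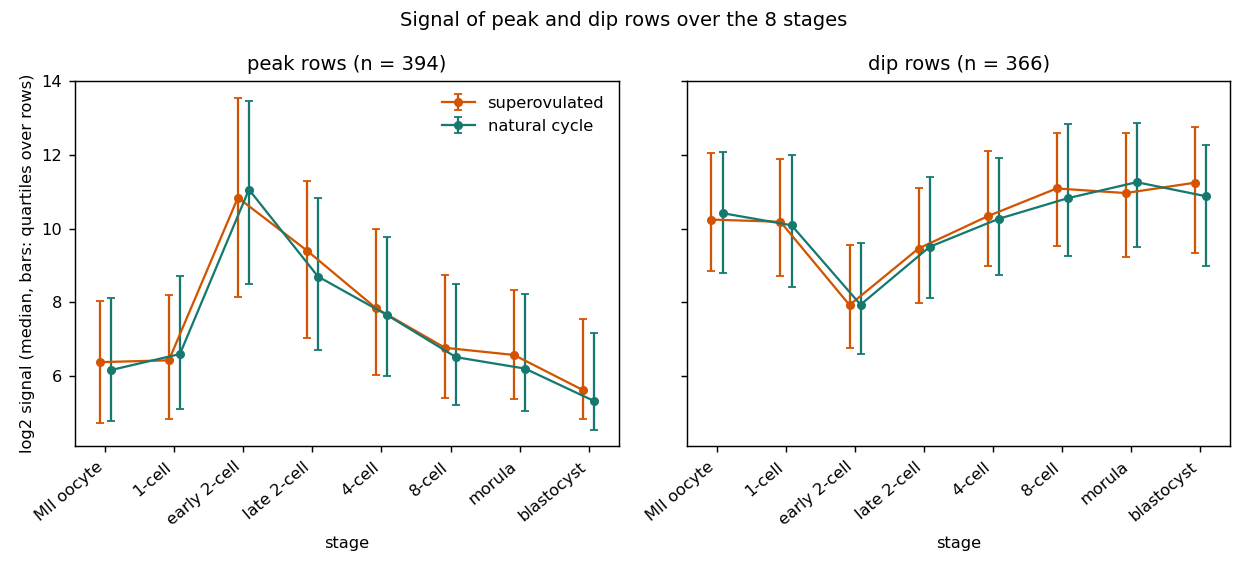
Median log2 signal over the 394 peak rows (left) and the 366 dip rows (right) at each of the 8 stages, superovulated in orange and natural cycle in green, with bars from the lower to the upper quartile over rows (not an error of measurement). Peak rows stand out at early 2-cell and drift down to the blastocyst, and dip rows return to the level of the oocyte by 4-cell.

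Among named genes, the largest peaks came from gene clusters known for brief expression at the 2-cell stage. Predicted, clone, receptor and small RNA families were passed over in this ranking, and Gm symbols alone made up 43.1% of peak rows. Usp17ld, of a family that encodes deubiquitinating enzymes, had signals of 13.36 and 13.27 in superovulated and natural-cycle early 2-cell embryos, against 5.32 and 5.61 at 1-cell and 7.25 and 7.40 at 4-cell. Its early 2-cell signal was 231-fold above 1-cell and 63.6-fold above 4-cell (contrast 6.92 ± 0.31 SE, adjusted p = 1.17e-07). All 5 measured Usp17l genes were peaks, with contrasts between 5.86 and 6.92.

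All 6 measured Zscan4 genes were peaks too, with contrasts between 5.10 and 5.43. Zscan4d had signals of 13.56 and 13.32 at early 2-cell, against 8.67 and 8.48 at 1-cell and 8.79 and 6.91 at 4-cell (5.23 ± 0.41, adjusted p = 8.02e-06). Zscan4d lay above the level of silent genes at 1-cell and in MII oocytes as well (8.33 and 8.43 in oocytes). Since the copies are close in sequence, their signals cannot be told apart with certainty; the same holds for the Usp17l, Pramel, Tdpoz and Gm clusters.

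Zfp352, which encodes a zinc finger protein known as a marker of 2-cell embryos, had 11.87 and 11.77 at early 2-cell, against 4.78 and 4.38 at 1-cell and 6.46 and 6.43 at 4-cell. Both 1-cell values lay at or below the level of silent genes, so it rose at least 101-fold over 1-cell, and it stood 41.4-fold above 4-cell. Tdpoz3, of a family with TRAF and BTB/POZ domains, had 15.27 and 15.39 at early 2-cell, against 4.53 and 4.43 at 1-cell and 10.20 and 10.15 at 4-cell, at least 1150-fold over 1-cell and 35.5-fold over 4-cell. Of 6 measured Tdpoz genes 4 were peaks, and Tdpoz2 and Tdpoz4 were called higher without being peaks because their 4-cell signals stayed close to early 2-cell: Tdpoz2 had 14.90 and 15.22 at early 2-cell, against 3.33 and 3.77 at 1-cell and 14.02 and 13.79 at 4-cell.

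Members of the Pramel family, leucine-rich repeat proteins related to the tumour antigen PRAME, supplied 12 peaks among 35 measured genes. Pramel19 reached 16.41 and 15.78 at early 2-cell, against 8.57 and 9.04 at 1-cell and 11.02 and 9.56 at 4-cell (6.55 ± 0.46, adjusted p = 3.34e-06). Pramel40 had 14.03 and 13.91 at early 2-cell, against 7.0 and 7.61 at 1-cell and 9.00 and 8.57 at 4-cell (5.92 ± 0.73). Rfpl4b, a ret finger protein-like gene, completed the 15 largest named peaks with 10.65 and 11.66 at early 2-cell, against 5.15 and 5.03 at 1-cell and 6.01 and 5.71 at 4-cell. These genes were ranked by the smallest of their 4 differences, so that the separation of early 2-cell from its flanks follows from the choice.

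**Figure D3:**
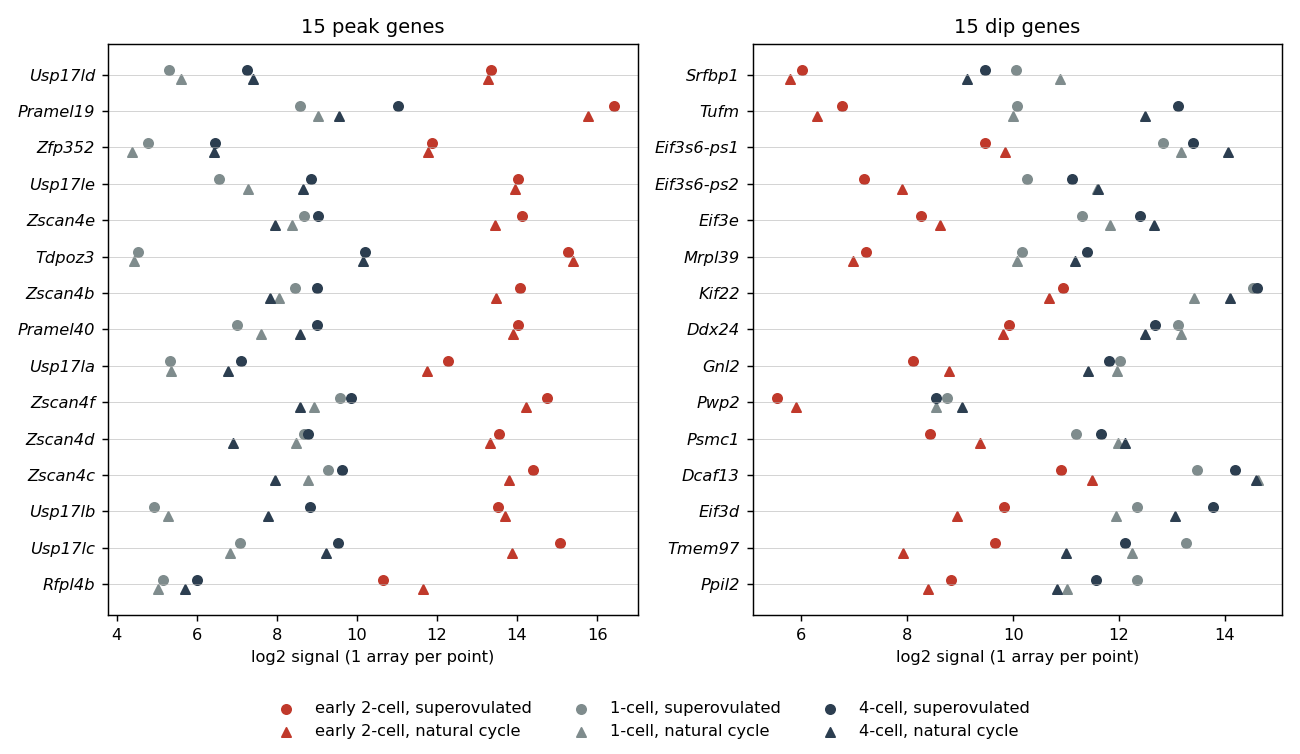
Log2 signal of the 15 named peak genes (left) and the 15 named dip genes (right) on the 6 arrays, 1 array a point: early 2-cell in red, 1-cell in grey, 4-cell in dark blue, circles superovulated, triangles natural cycle. By the rule that chose the genes, the red points lie to the right of those of the same background in each peak gene and to the left in each dip gene, with Usp17ld at 13.36 and 13.27 and Srfbp1 at 6.01 and 5.78.

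The list of 2-cell activation genes had 35 measured members, of which 33 were called higher, 26 of them peaks, and none lower (median contrast 5.23, against 0.00 over all genes). The members are known for this stage, so the count checks the stage label of the arrays and is no new evidence about them. The highest signal among them was that of a Gm2016 row, 18.17 and 18.21 at early 2-cell, against 7.22 and 8.33 at 1-cell and 13.68 and 13.75 at 4-cell. AA414992 had 15.35 and 16.42, against 4.79 and 5.17 at 1-cell and 12.32 and 12.21 at 4-cell. Tmem92, which encodes a transmembrane protein, had 15.40 and 15.25, against 7.55 and 7.94 at 1-cell and 11.38 and 10.67 at 4-cell. The members that were not called were Arg2, an arginase with 11.19 and 10.53 at early 2-cell between 15.16 and 14.45 at 1-cell and 8.68 and 7.33 at 4-cell, and Sp110, a nuclear body protein that still climbed to 15.14 and 15.27 at 4-cell. Duxf3, a copy of the homeobox factor Dux known to act upstream of Zscan4, was called higher (0.79 ± 0.14, adjusted p = 0.00207) at signals of 5.23 and 4.73, both at or below the level of silent genes of their arrays.

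Peak genes also lay next to each other. Of 341 peak genes placed in RefSeq, 144 (42.2%) had another peak gene among the 3 measured genes on either side, whereas 5.16% of all placed genes had a peak gene that close. Dip genes did not group: 19 of 361 (5.26%) had a dip gene among those neighbours, against 7.08% of all placed genes. Some neighbours are near-identical copies, whose part in the first count was not tested.

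The promoters of peak and dip genes were compared by their sequence, as a description without a test. RefSeq windows of 300 bases (250 before to 50 after the start, GRCm38.p6) were found for 181 peak genes, 231 dip genes and 17972 measured genes in all. The median window held 3 CpG dinucleotides in peak genes and 20 in dip genes, against 12 over all, and its GC content was 47.7% and 59.0%, against 56.0%. TATAAA, the core of the TATA box, occurred on either strand in 22.1% of peak and 5.19% of dip windows, against 12.9% of all. TAATCC, a sequence that homeobox factors of the Otx and Crx type are known to bind, occurred in 17.1% and 6.06%, against 6.82% of all. In the other direction, CCGGAAGT, the ETS-type element of many housekeeping promoters, occurred in 2.21% of peak and 21.6% of dip windows, against 5.05% of all. GGGCGG, the GC box, was in 29.8% and 63.2%, against 44.8%, CCAAT in 49.7% and 39.4%, against 38.4%, CACGTG, the E-box, in 2.76% and 12.6%, against 7.98%, and AAGATGGC, the element bound by YY1, in 1.10% and 6.93%, against 3.19%. Genes called lower as a whole had much of the make-up of the dips: their 1582 windows had a median of 20 CpG and 59.0% GC, 59.9% held GGGCGG, 13.1% CACGTG, 7.21% AAGATGGC and 14.6% CCGGAAGT. The 1587 windows of all genes called higher had a median of 16 CpG and 57.3% GC. Of these, 11.4% held TATAAA, 7.62% TAATCC, 50.9% GGGCGG and 5.29% CCGGAAGT. These letters are matches and not binding sites, copies within a cluster are not independent, and GC content differs between the sets. The windows over all genes include silent genes, whereas every dip row lay above the level of silent genes on the flank arrays. How far the dips differ from other expressed genes was not tested.

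The windows of 4 peak genes are shown, with TATAAA and TAATCC on either strand in capitals, and were chosen because they hold a match: TATAAA in a CpG-poor window (Zscan4d, Usp17ld), 9 copies of TAATCC in a repeat (Zfp352), and TATAAA in a CpG-rich window (Duoxa2, 19 CpG). They do not stand for the peaks as a whole: 77.9% of peak windows held no TATAAA, the window of Pramel19 held neither sequence, and Duoxa2 is not among the 15 largest named peaks.
Zscan4d (chr7:11166099-11166398, minus strand): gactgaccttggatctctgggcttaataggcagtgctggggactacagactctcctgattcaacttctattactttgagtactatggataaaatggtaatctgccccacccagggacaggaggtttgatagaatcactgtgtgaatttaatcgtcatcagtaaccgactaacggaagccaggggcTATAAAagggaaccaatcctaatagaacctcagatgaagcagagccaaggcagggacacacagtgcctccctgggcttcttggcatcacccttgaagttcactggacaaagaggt
Usp17ld (chr7:103252456-103252755, minus strand): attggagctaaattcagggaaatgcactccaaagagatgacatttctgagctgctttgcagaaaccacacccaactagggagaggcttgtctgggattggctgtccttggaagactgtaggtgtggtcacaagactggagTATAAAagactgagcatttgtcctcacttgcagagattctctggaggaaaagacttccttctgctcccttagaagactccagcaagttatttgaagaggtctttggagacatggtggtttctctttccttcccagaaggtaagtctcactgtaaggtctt
Zfp352 (chr4:90218570-90218869, plus strand): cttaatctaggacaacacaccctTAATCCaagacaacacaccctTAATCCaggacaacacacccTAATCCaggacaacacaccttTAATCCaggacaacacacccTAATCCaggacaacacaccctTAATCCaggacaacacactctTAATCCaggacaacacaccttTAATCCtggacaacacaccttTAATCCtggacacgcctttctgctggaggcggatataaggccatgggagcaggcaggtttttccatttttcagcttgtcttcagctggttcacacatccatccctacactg
Duoxa2 (chr2:122298650-122298949, plus strand): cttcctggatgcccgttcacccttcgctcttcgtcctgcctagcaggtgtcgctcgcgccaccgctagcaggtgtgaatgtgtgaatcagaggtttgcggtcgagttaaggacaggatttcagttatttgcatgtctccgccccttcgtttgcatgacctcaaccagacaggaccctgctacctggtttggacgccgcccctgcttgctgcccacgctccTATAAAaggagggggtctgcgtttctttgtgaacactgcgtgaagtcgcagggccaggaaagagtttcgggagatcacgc

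The windows of 4 dip genes are shown for contrast, with CCGGAAGT on either strand in capitals. They too were chosen for a match, which 78.4% of dip windows lacked, those of Psmc5, Mrpl39 and Ddx24 among them. Kif22 and Pwp2 hold 2 matches each, Tufm and Psmc1 hold 1.
Tufm (chr7:126487105-126487404, plus strand): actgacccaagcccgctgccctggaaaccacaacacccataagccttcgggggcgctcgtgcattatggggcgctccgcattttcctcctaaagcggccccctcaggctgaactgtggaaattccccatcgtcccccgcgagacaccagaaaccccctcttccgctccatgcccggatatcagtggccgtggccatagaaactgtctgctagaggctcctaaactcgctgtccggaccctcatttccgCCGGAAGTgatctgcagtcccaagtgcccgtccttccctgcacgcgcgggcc
Psmc1 (chr12:100109952-100110251, plus strand): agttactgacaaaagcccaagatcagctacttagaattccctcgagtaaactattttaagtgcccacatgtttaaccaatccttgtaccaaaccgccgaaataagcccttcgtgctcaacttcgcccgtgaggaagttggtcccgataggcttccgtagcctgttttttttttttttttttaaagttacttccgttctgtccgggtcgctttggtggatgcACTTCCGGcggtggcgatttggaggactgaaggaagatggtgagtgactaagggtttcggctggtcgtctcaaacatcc
Kif22 (chr7:127042371-127042670, minus strand): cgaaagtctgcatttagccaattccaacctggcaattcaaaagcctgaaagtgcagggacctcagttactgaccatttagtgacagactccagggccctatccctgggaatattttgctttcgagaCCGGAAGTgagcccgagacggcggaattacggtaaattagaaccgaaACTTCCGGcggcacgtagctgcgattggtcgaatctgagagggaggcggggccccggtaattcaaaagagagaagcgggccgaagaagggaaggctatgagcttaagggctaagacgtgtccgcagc
Pwp2 (chr10:78185100-78185399, minus strand): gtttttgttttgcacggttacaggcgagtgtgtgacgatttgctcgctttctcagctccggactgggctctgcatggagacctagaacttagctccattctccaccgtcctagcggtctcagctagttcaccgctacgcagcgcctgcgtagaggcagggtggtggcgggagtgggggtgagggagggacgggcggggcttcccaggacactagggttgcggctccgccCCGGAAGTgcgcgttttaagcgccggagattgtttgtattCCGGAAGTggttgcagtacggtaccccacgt

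Outside the named clusters, several single peak genes were picked after their values were seen. Dbx1, a homeobox gene of the neural tube, had 8.88 and 8.67 at early 2-cell, against 3.64 and 3.39 at 1-cell and 5.31 and 4.62 at 4-cell, at least 12.2-fold and 11.9-fold higher. Dusp6, which encodes a phosphatase that inactivates ERK, had 9.62 and 9.11, against 6.12 and 5.02 at 1-cell and 7.29 and 6.39 at 4-cell. Bambi, a decoy receptor of BMP and activin signalling, had 9.61 and 9.67, against 4.77 and 4.95 at 1-cell and 7.51 and 6.77 at 4-cell. Obox3, an oocyte-type homeobox gene, had 13.18 and 13.31, against 10.01 and 9.41 at 1-cell and 10.78 and 10.04 at 4-cell. It was the only peak of 5 measured Obox genes, all of which were called higher.

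Of 1224 measured olfactory receptor genes, 14 were peaks (1.14%, against 1.29% of all rows) and none was a dip, so that the share of peaks lay near that of all rows. Olfr376 had 10.56 and 10.58 at early 2-cell, against 4.01 and 3.83 at 1-cell and 4.79 and 5.53 at 4-cell, at least 42.5-fold over 1-cell and 40.6-fold over 4-cell (adjusted p = 2.23e-07). Olfr815 had 10.04 and 10.06, against 4.20 and 4.17 at 1-cell and 5.30 and 5.86 at 4-cell, at least 29.6-fold and 22.1-fold higher. Both rows were about as low as other olfactory receptor genes at 1-cell. The median contrast of all 1224 was -0.03, and the probes do not tell receptor transcripts from longer transcripts through the locus.

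Small RNA genes were among the peaks as well. All 4 measured rows of the Mir465 cluster on chromosome X, known for microRNAs of the testis, were peaks, with contrasts between 3.95 and 4.47. Their mature products are close in sequence, so that the 4 rows may not be separate measurements. Mir465d had 11.14 and 12.37 at early 2-cell, against 6.24 and 6.74 at 1-cell and 8.28 and 9.94 at 4-cell (3.95 ± 0.49, adjusted p = 0.000295). Mir465 had 8.44 after superovulation and 11.38 after a natural cycle at early 2-cell, against 4.41 and 6.01 at 1-cell and 5.33 and 7.74 at 4-cell. The natural-cycle value was the higher one at all 3 stages in Mir465 and Mir465d. A row of this array reads the RNA of the gene and not the mature microRNA. The 5p products that RefSeq lists for these 4 genes share 1 seed, bases 2 to 8, shown in capitals.
mmu-miR-465a-5p (Mir465): uAUUUAGAauggcacugauguga
mmu-miR-465b-5p (Mir465b-2): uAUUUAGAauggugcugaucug
mmu-miR-465c-5p (Mir465c-2): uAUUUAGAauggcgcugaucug
mmu-miR-465d-5p (Mir465d): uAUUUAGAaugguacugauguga

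Among 69 measured small nucleolar RNA and related genes 5 were peaks and none was a dip. Of these genes 11 were called higher and 4 lower, with a median contrast of 0.05. The group does not hold every such gene, since 9 peak rows were annotated as small nucleolar RNA. Snora47 had 17.71 and 17.04 at early 2-cell, against 14.99 and 13.57 at 1-cell and 14.28 and 11.10 at 4-cell (3.89 ± 0.66, adjusted p = 0.00202). Snord118, which encodes the U8 RNA needed for processing of ribosomal RNA, had 9.68 and 8.33, against 6.88 and 5.69 at 1-cell and 6.0 and 3.85 at 4-cell (3.40 ± 0.39). Their standard errors exceeded the median of 0.196 over all rows. Peaks made up 7.25% of these 69 genes, against 1.29% of all rows, but the family was picked after its values were seen.

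A few peaks belonged to lists with calls in both directions. Over all rows 8.81% were called higher and 8.12% lower, but that base includes silent genes. With testing limited to the 18604 rows that exceeded the silent-gene level on 2 or more arrays, 2815 were called higher and 2765 lower. These larger shares are the closer base, here and below, for lists whose members were mostly expressed. U2af1, the small subunit of the splicing factor that reads the 3′ splice site, had 12.31 and 13.08 at early 2-cell, against 8.36 and 8.43 at 1-cell and 9.93 and 10.21 at 4-cell (3.46 ± 0.35), while 16 of 49 measured spliceosome and SR protein genes were called lower, 10 of them dips, and 4 were called higher. Pan2, the catalytic subunit of a deadenylase, had 13.82 and 13.72, against 12.63 and 12.32 at 1-cell and 10.95 and 10.53 at 4-cell (2.16 ± 0.24). Patl1, which encodes a decapping activator, had 11.07 and 11.06, against 9.95 and 10.05 at 1-cell and 8.93 and 9.36 at 4-cell (1.49 ± 0.27). Of the 40 measured RNA decay genes 6 were called higher and 9 lower, and Exosc1, a subunit of the exosome, was a dip with 12.01 and 12.07 at early 2-cell, against 14.54 and 14.77 at 1-cell and 14.72 and 14.04 at 4-cell.

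Of 35 measured p53 target and stress genes 12 were called higher and 1 lower (median 0.40), although the median level of the list at early 2-cell after superovulation, 6.13, lay between 5.65 at 1-cell and 6.44 at 4-cell. Hmox1, heme oxygenase, was a peak at low signals, 6.25 and 6.05 at early 2-cell, against 4.42 and 4.44 at 1-cell and 4.36 and 4.07 at 4-cell, where all 4 flank arrays were at or below the level of silent genes. Ier2, an immediate early gene, and Plk2, a polo-like kinase, were peaks with contrasts of 1.3 ± 0.26 and 1.80 ± 0.50 (adjusted p = 0.00502 and 0.0294), but Ier2 lost its call in 1 and Plk2 in 9 of 16 alternative settings. Ddit4, an inhibitor of mTORC1 signalling, was the dip of this list, with 7.45 and 7.74 at early 2-cell, against 9.76 and 8.82 at 1-cell and 9.91 and 9.32 at 4-cell. Eomes, a T-box factor of the trophoblast, was the only peak among 35 pluripotency and lineage genes, with 6.90 and 7.77 at early 2-cell, against 4.98 and 5.42 at 1-cell and 5.88 and 5.56 at 4-cell (1.87 ± 0.46, adjusted p = 0.0146), and its call was lost in 4 of 16 alternative settings, 2 of which left out an early 2-cell array.

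Of 45 measured oocyte genes 18 were called higher and 4 lower (8.81% and 8.12% over all rows), with a median of 0.61, and none was a peak or a dip. The median level of the list was 13.48 and 13.25 at early 2-cell, against 14.87 and 15.17 at 1-cell and 11.33 and 10.49 at 4-cell, so that early 2-cell lay between its flanks. Of 56 chromatin regulators 11 were called higher and 7 lower, again with no peak or dip, and the sign of their median turned with the scaling (0.22 as deposited, -0.03 after centring).

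Dips were found in genes of protein turnover, translation and RNA processing. By the smallest of its 4 differences the pseudogene Gm9755 dipped farthest (3.98 log2), but predicted genes were passed over in naming. Among named genes Srfbp1, which encodes a cofactor of serum response factor, gave the largest dip by this measure (3.34 log2). Its signals were 6.01 and 5.78 at early 2-cell, against 10.06 and 10.89 at 1-cell and 9.46 and 9.12 at 4-cell. It was 24.0-fold lower than at 1-cell and 10.5-fold lower than at 4-cell (contrast -3.99 ± 0.38 SE, adjusted p = 4.01e-05). Tufm, the mitochondrial elongation factor Tu, had 6.76 and 6.29 at early 2-cell, against 10.08 and 10.00 at 1-cell and 13.11 and 12.49 at 4-cell (-4.90 ± 0.33, adjusted p = 2.31e-06), 11.4-fold below 1-cell and 77.5-fold below 4-cell. Kif22, a chromosome-binding kinesin, had 10.94 and 10.67, against 14.52 and 13.41 at 1-cell and 14.60 and 14.09 at 4-cell (-3.35 ± 0.28). Gm9755 had a course like that of Tufm, with 6.99 and 7.09 at early 2-cell, 10.97 and 11.26 at 1-cell and 13.67 and 12.92 at 4-cell. Whether pseudogene rows read transcripts of their own or those of related genes was not tested.

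The proteasome, which degrades ubiquitin-tagged proteins, had the lowest median of the 26 lists, -1.57, against 0.00 over all genes. Its median level was 9.77 and 10.27 at early 2-cell, against 10.48 and 11.21 at 1-cell and 11.83 and 12.09 at 4-cell. More of the list contrast thus came from the higher 4-cell level than from a fall after 1-cell. Of 30 measured subunits 23 were called lower, against 8.12% of all rows, none was called higher and 7 were not called. The 8 dips included ATPases of the regulatory particle (Psmc1, Psmc2, Psmc5), core particle subunits (Psma6, Psma7, Psmb7) and lid subunits (Psmd8, Psmd11). Psmc1 had 8.43 and 9.38 at early 2-cell, against 11.19 and 11.98 at 1-cell and 11.66 and 12.11 at 4-cell (-2.82 ± 0.35, adjusted p = 0.000261). Psma6 had 10.68 and 11.09, against 12.30 and 12.98 at 1-cell and 15.75 and 15.60 at 4-cell (-3.27 ± 0.27), with the larger of both differences on the 4-cell side. Psmb3 and Psmd3 were not called, with contrasts of 0.86 and 0.83. With arrays scaled by cyclic loess 21 subunits were called lower and 3 higher, and relative to the housekeeping mean 25 and 2.

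Of 10 subunits of the COP9 signalosome, a complex related to the proteasome lid that removes NEDD8 from cullins, 6 were called lower and 1 higher (median -0.84). Its dips were Cops3 (contrast -2.30 ± 0.28, adjusted p = 0.000272) and Cops5, the catalytic subunit, with 9.04 and 8.48 at early 2-cell, against 10.96 and 11.22 at 1-cell and 10.33 and 9.98 at 4-cell (-1.86 ± 0.29, adjusted p = 0.00122).

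Translation initiation factors had a median of -0.99, with 19 of 31 members called lower and 1 higher. At list level early 2-cell (9.83 and 10.12) lay farther below 4-cell (12.40 and 12.65) than below 1-cell (11.14 and 10.89). Eif3e had 8.25 and 8.61 at early 2-cell, against 11.29 and 11.82 at 1-cell and 12.40 and 12.65 at 4-cell (-3.61 ± 0.27, adjusted p = 5.55e-06). Eif3d, the subunit of the same factor that can bind the cap, had 9.83 and 8.93, against 12.33 and 11.95 at 1-cell and 13.78 and 13.06 at 4-cell (-3.40 ± 0.26). Eif2b3, Eif3b and Eif4h were dips as well, with contrasts of -3.21, -2.78 and -2.96. Of 12 measured subunit genes of eIF3, 9 were called lower and 3 were dips. The pseudogenes Eif3s6-ps1 and Eif3s6-ps2, copies of Eif3e, were among the 15 named dips with -3.70 and -3.61, and shared sequence means that they cannot be told apart from their parent.

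Ribosome biogenesis genes had a median of -1.12, with 19 of 35 called lower and 2 higher. The median level of the list lay between both flanks, with 9.31 and 10.22 at early 2-cell, against 8.69 and 8.84 at 1-cell and 12.21 and 12.17 at 4-cell. Its dips were Utp4, Wdr75, Noc4l and Heatr1, all of the machinery that processes the small subunit or its RNA. Utp4 had 12.10 and 12.21 at early 2-cell, against 15.79 and 15.65 at 1-cell and 14.33 and 14.26 at 4-cell (-2.85 ± 0.23, adjusted p = 1.2e-05). The nucleolar genes Gnl2, Pwp2 and Dcaf13 were among the 15 named dips: Pwp2 had 5.53 and 5.90 at early 2-cell, against 8.75 and 8.54 at 1-cell and 8.55 and 9.04 at 4-cell (-3.0 ± 0.33). Cytosolic ribosomal protein genes, of which 33 of 77 had a row of their own, showed no dip, with 7 called lower and 1 higher (median -0.30), and their median level, 9.39 and 9.55 at early 2-cell, also lay between the flanks, at 7.62 and 7.56 at 1-cell and 12.62 and 12.67 at 4-cell.

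Mitochondrial ribosomal proteins had 34 of 71 members called lower, 3 called higher and 9 dips (median -0.76). Mrpl39 had 7.21 and 6.97 at early 2-cell, against 10.16 and 10.08 at 1-cell and 11.40 and 11.17 at 4-cell (-3.61 ± 0.25, adjusted p = 3.31e-06). Mrpl47 had 7.61 and 7.79, against 12.40 and 12.10 at 1-cell and 10.09 and 9.67 at 4-cell (-3.36 ± 0.26). Of 71 nuclear genes of oxidative phosphorylation 27 were called lower and 2 higher (median -0.68), with dips in Uqcrb and Cox6a1. Their median level was 7.73 and 7.77 at early 2-cell, against 8.06 and 7.80 at 1-cell and 9.38 and 9.09 at 4-cell. The larger gap thus lay on the 4-cell side. None of the 5 measured genes of the mitochondrial genome itself was called lower, and 1 was called higher. Their median level, 16.02 and 15.62 at early 2-cell, lay between 14.27 and 14.22 at 1-cell and 17.52 and 17.20 at 4-cell.

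Of 33 aminoacyl-tRNA synthetases, which charge tRNAs, 17 were called lower and none higher (median -0.67). Here too the list median at early 2-cell (6.16 and 6.23) was farther from 4-cell (7.70 and 7.89) than from 1-cell (6.92 and 7.31). Eprs, the glutamyl-prolyl synthetase, had 8.85 and 8.97 at early 2-cell, against 11.15 and 12.17 at 1-cell and 11.41 and 11.76 at 4-cell (-2.71 ± 0.26). Farsa, Lars, Nars, Rars and Tars were dips with contrasts from -2.60 to -1.54. Of 30 chaperonin and heat shock genes 10 were called lower and 3 higher. Hspa8, the constitutive HSP70, was among the strongest signals and its 4 rows were all dips. Their identifiers point to different chromosomes and their values were close, so they do not count as 4 separate measurements of the gene. The row with the highest values had 16.82 and 16.20 at early 2-cell, against 18.61 and 17.72 at 1-cell and 19.12 and 18.81 at 4-cell.

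The splicing dips included 3 factors of the U5 particle, Prpf8, Snrnp200 and Eftud2, and the U2 proteins Sf3a1 and Sf3a3. Sf3a3 had 9.56 and 10.07 at early 2-cell, against 12.69 and 13.64 at 1-cell and 12.04 and 12.04 at 4-cell (-2.79 ± 0.30, adjusted p = 0.000112). Eftud2 had 6.58 and 6.52, against 9.43 and 9.10 at 1-cell and 8.71 and 9.12 at 4-cell (-2.54 ± 0.29). The call of Crnkl1 was close to the threshold (-1.57 ± 0.48, adjusted p = 0.0433) and was lost in 10 of 16 alternative settings.

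Genes of the transcription machinery gave a mixed picture. Of 46 genes of RNA polymerase II and the general factors 15 were called lower and 4 higher, at a median level of 10.25 and 10.30 at early 2-cell, between 9.76 and 10.20 at 1-cell and 10.57 and 10.46 at 4-cell. Dips lay in Polr2b, Polr2d, Taf8, Ccnh and Nelfe. Nelfe, of the complex that holds the polymerase in pause, had 7.82 and 7.87 at early 2-cell, against 8.95 and 8.98 at 1-cell and 10.87 and 10.11 at 4-cell (-1.89 ± 0.26). Of 29 Mediator subunits, which link activators to the polymerase, 9 were called lower and 6 higher. Med17 had the largest fall among all list members, with 9.39 and 7.84 at early 2-cell, against 15.07 and 13.87 at 1-cell and 11.33 and 10.87 at 4-cell (-4.17 ± 0.40, adjusted p = 4.4e-05), while Med30 was called higher by 3.69 without being a peak. Among 40 nucleoporins and importins 13 were called lower and 6 higher, with dips in Nup107 and the exportin of pre-microRNAs, Xpo5.

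Of 46 DNA replication genes 19 were called lower and 2 higher (median -0.68), with 7 dips. Gins1, Gins3 and Gins4, of the GINS complex that activates the replicative helicase, were dips, and Gins2, the fourth subunit, was not called (0.04). Gins3 had 7.10 and 6.70 at early 2-cell, against 8.51 and 8.78 at 1-cell and 12.33 and 12.62 at 4-cell (-3.66 ± 0.23, adjusted p = 1.24e-06). Cdc6, the helicase loader, had 10.49 and 10.17, against 11.80 and 12.14 at 1-cell and 12.96 and 12.49 at 4-cell. Among 43 genes of mitosis and the cell cycle 14 were called lower and 10 higher, with dips in Cdc25a, Plk1, Ndc80 and Incenp.

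**Figure D4:**
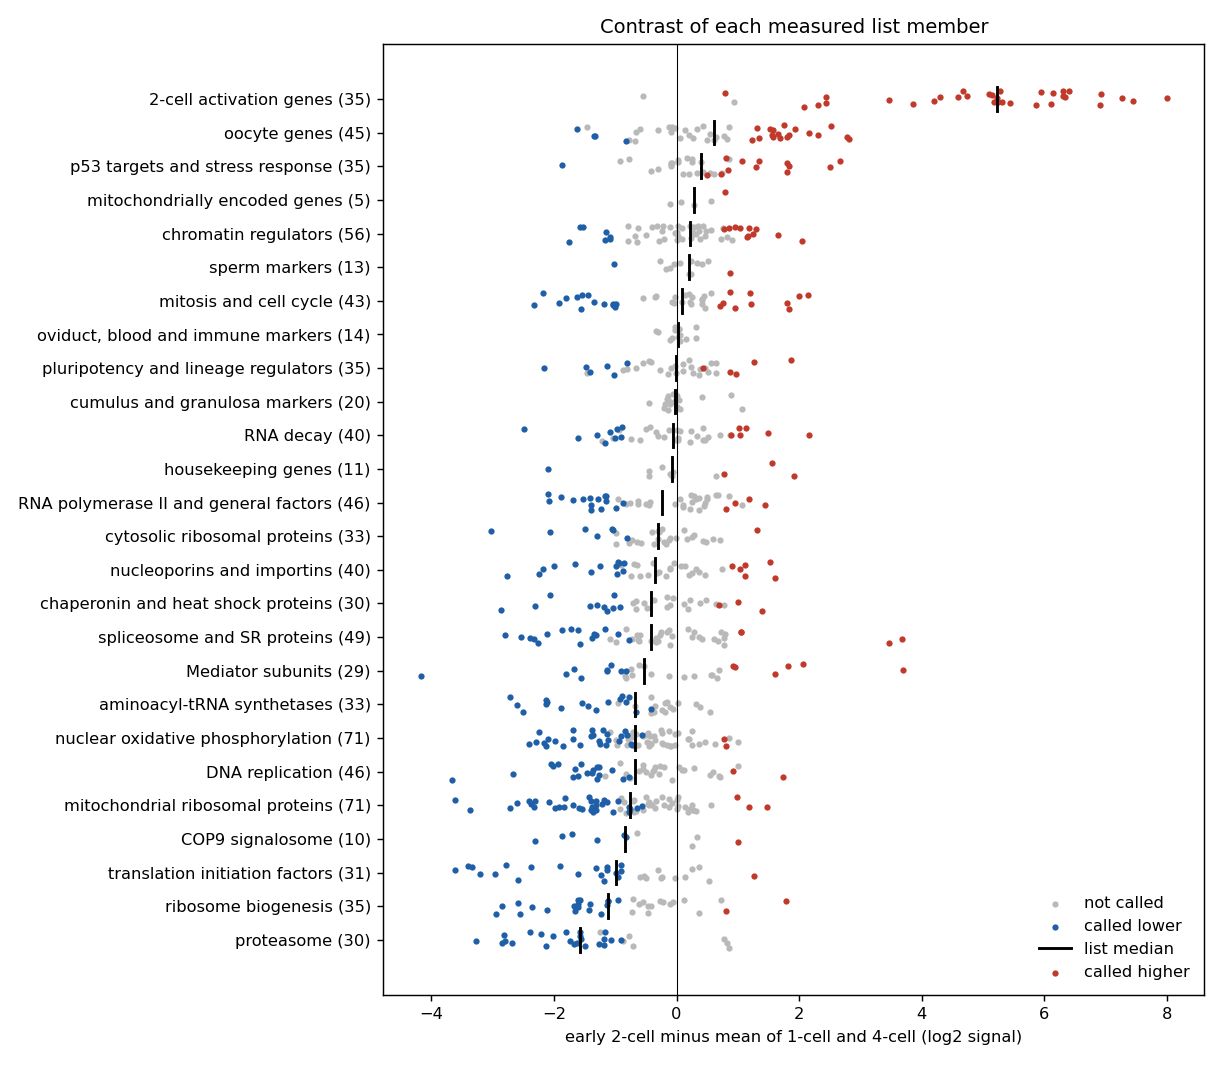
Contrast of each measured list member (early 2-cell minus the mean of 1-cell and 4-cell, log2 signal), 1 row for each of 26 lists with the number of members in parentheses, ordered by the list median (black bar): called lower in blue, called higher in red, not called in grey, vertical scatter for legibility only. The 2-cell activation genes stand apart at the right with a median of 5.23, and the proteasome has the lowest median, -1.57.

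The late 2-cell embryo lies between early 2-cell and 4-cell, and its arrays were not part of the contrast. The share of the early 2-cell difference that was still present there, measured from the mean of both flanks, had a median of 57.5% over peak rows in superovulated embryos and 36.9% in natural-cycle embryos. It was larger after superovulation in 301 of 394 peak rows. For dip rows the medians were 38.3% and 25.4%, and it was larger after superovulation in 231 of 366. With 1 late 2-cell array per background, the timing of the pool, the array and the hormone treatment cannot be told apart.

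**Figure D5:**
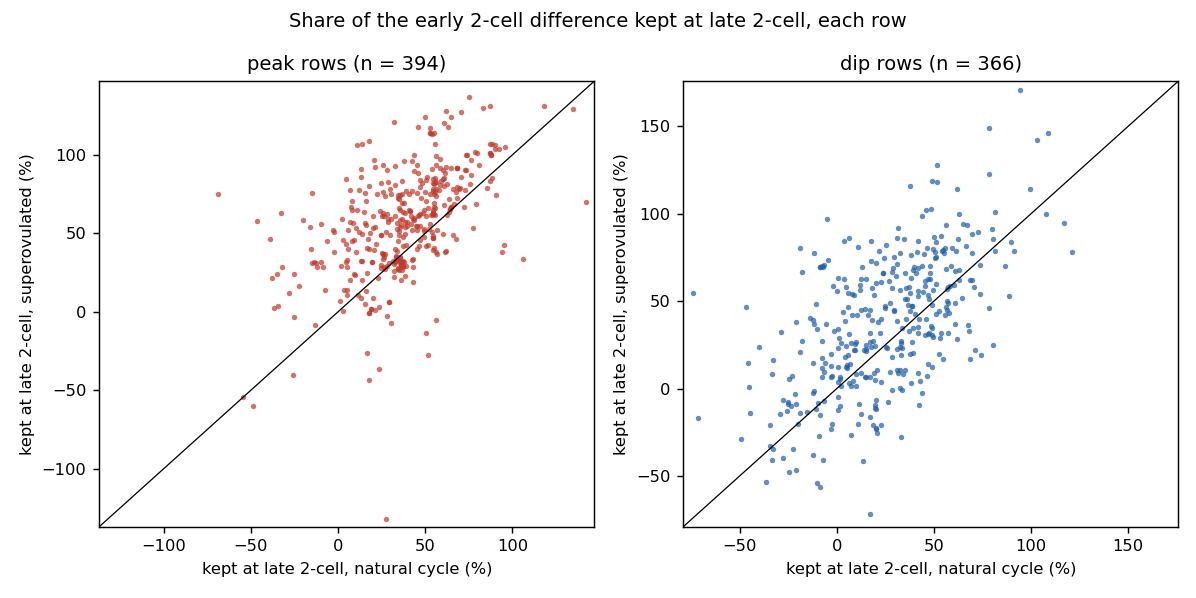
Share of the early 2-cell difference kept at late 2-cell (percent, natural cycle horizontal, superovulated vertical) for the 394 peak rows (left) and the 366 dip rows (right), with the line of equal shares. Most points lie above the line, 301 peak rows and 231 dip rows.

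Single genes differed widely in this share. Scarna10, a guide RNA of Cajal bodies, was still higher at late 2-cell (10.53 and 9.49) than at early 2-cell (9.64 and 8.56), and so was Pramel1 (9.42 and 8.75 at late 2-cell, 8.59 and 8.30 at early 2-cell). Speer8-ps1, Zfp599, Meioc, a meiosis gene, and Spopfm2 kept between 80.8% and 131% on either background. At the other end Pan2 kept none: its late 2-cell values of 11.62 and 11.12 lay below the mean of its flanks. Rexo2, an oligoribonuclease, Ciao2b, of the iron-sulfur cluster machinery, Patl1 and Elf3, an epithelial ETS factor, also kept under 15% on both, and the call of Elf3 was lost in 7 of 16 alternative settings. Duoxa2, the maturation factor of a dual oxidase, was a peak from a silent start, with 8.60 and 9.75 at early 2-cell, against 4.74 and 4.24 at 1-cell and 4.64 and 5.38 at 4-cell, at least 16.2-fold and 16.3-fold higher (adjusted p = 2.04e-06), and was back at 5.11 and 5.05 at late 2-cell.

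Among the dips, Pfn1, an actin-binding protein, Rpn1, of the oligosaccharyltransferase, Zfp72, Cds2, Lrr1 and Dmap1 kept 80.3% or more of the difference on both backgrounds. Rpn1 had 6.40 and 6.32 at early 2-cell and 6.47 and 6.05 at late 2-cell, against 8.02 and 8.38 at 1-cell and 7.55 and 7.40 at 4-cell, and its call was lost in 4 of 16 alternative settings. Riox2, Ndufaf7, Utp11, Ssr2, Gins3 and Yipf1 had already passed the mean of their flanks at late 2-cell. Ssr2, of the translocon-associated protein complex, had 10.88 and 11.29 at early 2-cell and 15.49 and 16.07 at late 2-cell, against 12.71 and 12.88 at 1-cell and 16.22 and 16.10 at 4-cell.

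A peak or dip row had to pass 1 log2 on both hormonal backgrounds, so that its sizes on them are a description. The median contrast over peak rows was 2.87 log2 in superovulated and 3.28 in natural-cycle embryos, and it was larger after superovulation in 178 rows and after a natural cycle in 216. Over dip rows it was -2.09 and -1.95, larger after superovulation in 207 and after a natural cycle in 159. A test of the difference between both contrasts called 0 of 30638 rows (0%, limma, 5 residual degrees of freedom, smallest adjusted p = 0.129), with 1103 rows at an unadjusted p below 0.05, and no row passed 1 log2 on all flanks in opposite directions. The median standard error of that difference was 0.393 log2, so that only large differences between backgrounds could have been called.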

How the data were processed

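RNA of 20 pooled oocytes or embryos per array had been hybridised to whole-transcript arrays, and the authors deposited log2 signals, 1 column for each of 16 arrays and 72688 rows, processed with Affymetrix Expression Console per the submitters' notes. For the build behind the annotation, nothing is given in the sources used here. The number of arrays limits the precision. The deposited log2 values were used without rescaling. Rows with exactly 1 symbol were tested (30638), which left out 39688 rows with none, 2176 with several and 186 control rows. Where a gene had several rows (354 genes), the row with the highest mean stood for it in lists. Of the tested genes 29849 were found in RefSeq, and 24 list symbols were matched through a RefSeq synonym.

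Each row was fitted with limma 3.58.1 (R 4.3.3) on all 16 arrays with stage and stimulation as terms (7 residual and 4.52 prior degrees of freedom, mean-variance trend, median standard error 0.196 log2), with Benjamini-Hochberg adjustment across the whole set of tested rows. The difference between backgrounds came from a fit with a stimulation term for each of early 2-cell, its flanks and the other stages. The procedure was run on simulated data with known changes and independent noise. Such data hold no shared differences between pools or arrays, so the run says nothing about those. The comparison, its members and the 26 gene lists were chosen with earlier results of these data known. Lists received no test of their own. Named genes were the 15 peak and 15 dip genes with the largest smallest-of-4 differences (values at or below the level of silent genes raised to it; predicted, clone, receptor and small RNA families passed over), peak and dip members of the lists with up to 3 others per list, and up to 6 that kept most or least of their difference at late 2-cell. Only genes that still differed by at least 1 log2 on all 4 differences after this raising entered that last choice, a restriction added after the data were seen. Genes outside the rule, picked after their values were seen, were Dbx1, Dusp6, Bambi, Obox3, the olfactory receptor, microRNA and small nucleolar RNA genes, and those at the edge of the size rule.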

Additional observations from a re-analysis of the deposited data

Results flagged for a closer look

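Signal of the same kind lay in rows that the comparison did not use. Of 41864 rows with no symbol or several, 391 were peaks (0.934%) and 101 were dips (0.241%) when all rows were fitted together. Among the peaks 309 rows had no symbol and 82 several, and among the dips 89 and 12. What these rows measure was not tested.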

How the results depend on the processing

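The count of peak rows lay between 283 and 564 over the alternatives in the arrays fitted, the error model, the scaling, the filter and the flanking stages, and that of dip rows between 323 and 575. Centring each array on rows above the level of silent genes gave 1666 rows called higher, 5389 called lower and 575 dip rows. With all 72502 rows, symbols or not, there were 777 peak rows. Asking only for differences above 0 log2 gave 1873 peak and 1564 dip rows, and asking for at least 2 log2 gave 170 and 47. Leaving out 1 of the 6 arrays at a time gave 1142 to 2544 rows called higher, 1149 to 2208 called lower, 417 to 618 peak rows and 401 to 558 dip rows. Calls fell most without an early 2-cell array: 1563 higher and 1149 lower without the superovulated one, 1142 and 1199 without the natural-cycle one. Peaks and dips rose in number because fewer differences were then asked for, with 618 peak rows without the superovulated early 2-cell array and 558 dip rows without the natural-cycle 1-cell array. Of the main peak rows 354 to 389 remained in these runs, and of the dip rows 315 to 365. Cyclic loess kept 358 of 394 peak and 273 of 366 dip rows.

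Of 141 named list members and leading genes, 122 kept their call and all kept their direction in the 16 settings in which single genes were followed. These settings did not include the fit of all rows or the other size rules. The tally is of calls of the contrast, and does not say whether a gene remained a peak or a dip. Crnkl1, Plk2 and Elf3 lost the call most often, in 10, 9 and 7 of 16 settings. The difference between backgrounds called 0 rows in each of the 2 alternatives run (1250 rows at an unadjusted p below 0.05 with cyclic loess, 1150 without the trend). Both backgrounds were paired by stage through the stimulation term of the fit, and without that term 2205 rows were called higher, 2012 lower, 388 were peaks and 353 dips.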
